A study of Homo sapiens with 8 samples.

Results

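Human cells carry 7 genes for the JUN and FOS proteins: JUND, JUN and JUNB on the JUN side and FOS, FOSB, FOSL1 and FOSL2 on the FOS side. They were taken by gene name, and 7 of 7 were found among the 29534 gene names of the deposited expression table. The cells were BEAS-2B, an established line of human bronchial epithelium that was transformed with a virus. In the JunD group, 3 RNA libraries came from cells transfected for 12 h with JunD in the plasmid pcDNA3.1 and then kept in cigarette smoke extract (CSE) for 24 h. In the empty-vector group, 3 RNA libraries came from cells given the plasmid without JunD, with the same times of transfection and of CSE. The CSE dose is not stated for either RNA group. A chromatin immunoprecipitation (ChIP) library made with an antibody to JunD and its input library were made from the same line after 24 h in CSE at 8%, with no transfection stated. Every group was therefore exposed to smoke extract, and no unexposed cells were compared. Whether the 3 libraries of a group were separate cultures is not stated, and the p-values therefore rest on a spread that may be technical.

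JUN and FOS proteins are basic leucine zipper transcription factors that bind DNA in pairs, together called AP-1. JUN proteins pair with each other or with a FOS protein, whereas FOS proteins need a JUN partner to bind, so the mix of members in a cell sets which pairs can form. In airway epithelium AP-1 responds to growth factors, stress and smoke, with FOS, FOSB and JUNB known as rapid and short-lived responders, and FOSL1 and JUND as members that can stay expressed.

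The RNA libraries held 15967955 to 29617655 assigned reads. Levels are in RPKM, a gene's reads per length of its exons and per assigned reads of the library, so that genes and libraries can be compared. Differences were tested with limma on log2(RPKM + 0.5) over genes with a mean of at least 1 RPKM, and a gene was called where its p, adjusted by Benjamini-Hochberg over all genes tested, was below 0.05. Of the epithelial markers, KRT7, KRT8 and KRT18 had group means of 70.8 to 179 RPKM, and KRT17 lay between 10.9 and 14.9 RPKM. KRT5, KRT19, CDH1, EPCAM and TP63 stayed at or below 0.224 RPKM in every library. Of the mesenchymal markers, VIM lay between 267 and 379 RPKM. PDGFRB had a mean of 2.70 RPKM with JunD and 5.65 RPKM with the empty vector. In the same order, COL1A1 had 0.317 and 1.16 RPKM and COL1A2 0.0052 and 0.017 RPKM. Markers of leukocytes and endothelium lay at or below 0.386 RPKM. JunD replicate 3 stood apart on the component that held 11.8% of the variance, at -22.2 against 11.7 and 10.8 for the other JunD libraries. Some results below, among them the fold changes of JUND and JUNB, are also given without it.

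Promoter sequences were matched for 6 of the 7 genes, all but FOSL1, from RefSeq (GRCh38.p14). Shown here are those that hold the cyclic AMP response element TGACGTCA or a chosen variant, TGACATCA or TGACGTAA, among the 250 bases before the RefSeq start. They are written 5′ to 3′ along the gene, with the matching letters in capitals. Other variants were not searched, such as TGACGTTT in the FOS window and TGACGTGA in the FOSL2 window. JUND is on the minus strand (chr19:18281623.0-18281872.0) and FOSB on the plus strand (chr19:45467746.0-45467995.0). For JUN, on the minus strand, 30 bases around the match are shown (chr1:58784096-58784125), since the deposited gene model starts 280 bases farther upstream than RefSeq's.
JUND: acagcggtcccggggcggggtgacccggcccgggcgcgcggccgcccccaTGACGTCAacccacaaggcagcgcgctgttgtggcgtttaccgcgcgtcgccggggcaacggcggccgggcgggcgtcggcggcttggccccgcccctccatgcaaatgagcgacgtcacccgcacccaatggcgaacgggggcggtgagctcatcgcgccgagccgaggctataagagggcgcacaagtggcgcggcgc
FOSB: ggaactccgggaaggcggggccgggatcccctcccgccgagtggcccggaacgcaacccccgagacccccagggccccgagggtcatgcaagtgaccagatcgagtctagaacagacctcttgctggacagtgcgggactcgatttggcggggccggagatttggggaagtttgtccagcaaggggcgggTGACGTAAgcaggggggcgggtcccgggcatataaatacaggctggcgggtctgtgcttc
JUN: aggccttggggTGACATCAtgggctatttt
The letters TGACGTCA, the cyclic AMP response element, stood in JUND from base -200 to base -193. The same letters were found in 1.65% of 35116 RefSeq promoters of this length. In JUN the letters TGACATCA stood from base -67 to base -60, and 2.37% of promoters held them. In FOSB the letters TGACGTAA stood from base -60 to base -53, and 0.37% of promoters held them. The classical AP-1 letters TGACTCA were found in 4.2% of promoters and in none of the 6 windows. Both strands were searched and no match overlapped another. A match describes letters only, and none of the 6 windows overlapped a listed JunD peak.

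JUND, the transfected gene, encodes a JUN protein that is present in most resting cells (chromosome 19, 18279760 to 18281622, minus strand, GRCh38). Its level was 70.3, 63.5 and 103 RPKM in JunD replicates 1 to 3, from 2167, 1888 and 3391 reads. In empty-vector replicates 1 to 3 it was 13.2, 10.5 and 10.6 RPKM, from 437, 581 and 352 reads. The groups did not overlap, and the lowest JunD library was 4.80 times the highest empty-vector library. The log2 fold change was 2.71 (standard error, SE, 0.19, limma adjusted p = 1.02e-04), and 2.502 without JunD replicate 3. Only 0.493% of the other tested genes had a larger log2 fold change. Reads from the plasmid and from the chromosome are not separated in the table, and in bulk RNA more cells carrying the plasmid and more RNA per cell cannot be told apart.

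JUN, the founding member and a strong activator in pairs with FOS proteins (chromosome 1, 58780788 to 58784327, minus strand), had the narrowest groups of the family relative to its level. It lay at 116, 116 and 119 RPKM in JunD replicates 1 to 3 and at 91.9, 91.2 and 90.7 RPKM in empty-vector replicates 1 to 3. The groups did not overlap, and the log2 fold change was 0.36 (SE 0.05, limma adjusted p = 0.0012). The rise was small beside that of JUND, and 24.5% of the other tested genes had a larger log2 fold change.

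JUNB, a JUN protein that can oppose JUN (chromosome 19, 12791496 to 12793315, plus strand), was expressed at a low level. Its values were 3.65, 2.68 and 6.82 RPKM in JunD replicates 1 to 3, from 110, 78 and 220 reads. In empty-vector replicates 1 to 3 they were 1.95, 1.48 and 1.01 RPKM, from 63, 80 and 33 reads. The groups did not overlap, although the libraries of the JunD group spread more, relative to their mean, than those of any other member. The log2 fold change was 1.24 (SE 0.32, limma adjusted p = 0.019), and 0.90 without JunD replicate 3 (limma adjusted p = 0.017), and 2.26% of the other tested genes had a larger one than 1.24. The call was lost without empty-vector replicate 2 (limma adjusted p = 0.057), without empty-vector replicate 3 (limma adjusted p = 0.060) and without the expression filter (limma adjusted p = 0.053). It was also lost with same-numbered libraries fitted as pairs (limma adjusted p = 0.056). HOOK2, on the opposite strand, shares 14.2% of the exon length of JUNB. No source used here gives the strand setting of the counting, so reads in the shared stretch cannot be told apart. HOOK2 itself had 3.14 RPKM with JunD and 3.09 RPKM with the empty vector.

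FOSL1, which encodes FRA-1, a FOS protein without the strong activation domain of FOS (chromosome 11, 65892049 to 65900573, minus strand), was the most abundant member in every library. It lay at 398, 432 and 436 RPKM in JunD replicates 1 to 3 and at 224, 222 and 213 RPKM in empty-vector replicates 1 to 3. The groups did not overlap, and the lowest JunD library was 1.78 times the highest empty-vector library. The log2 fold change was 0.94 (SE 0.06, limma adjusted p = 6.45e-05), and 4.16% of the other tested genes had a larger one. In RPKM the group mean of FOSL1 was 203 higher with JunD, against 67.4 for JUND itself and 25.8 for JUN. By mean RPKM FOSL1 ranked 170 of 29534 genes with the empty vector and 86 with JunD.

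FOSL2, which encodes the related FRA-2 (chromosome 2, 28392448 to 28417312, plus strand), had 17.3, 17.1 and 19.9 RPKM in JunD replicates 1 to 3. It had 15.4, 15.5 and 14.5 RPKM in empty-vector replicates 1 to 3. The groups did not overlap, but the gap between them was small, with a log2 fold change of 0.25 (SE 0.07, limma adjusted p = 0.031), and 34.7% of the other tested genes had a larger one. The call depended on scaling: the log2 fold change was 0.12 after median of ratios (limma adjusted p = 0.12) and 0.15 after quantile normalization (limma adjusted p = 0.090). It was also lost when any 1 of the empty-vector libraries was left out (limma adjusted p from 0.073 to 0.096) and without the expression filter (limma adjusted p = 0.055). With same-numbered libraries fitted as pairs, the FOSL2 call was lost too (limma adjusted p = 0.11).

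FOS, the founding member of its side and an early gene of growth signals (chromosome 14, 75278774 to 75282230, plus strand), and its close relative FOSB (chromosome 19, 45467995 to 45475179, plus strand) were below the filter of a mean of 1 RPKM. FOS had 22, 22 and 32 reads in JunD replicates 1 to 3 and 25, 23 and 20 reads in empty-vector replicates 1 to 3, or 0.411, 0.425 and 0.558 RPKM against 0.435, 0.240 and 0.346 RPKM. The FOS groups overlapped, and over the 19854 genes with a mean of at least 0.1 RPKM its log2 fold change was 0.20 (SE 0.12, limma adjusted p = 0.25). FOSB had 29, 26 and 38 reads in JunD replicates 1 to 3 and 22, 18 and 17 reads in empty-vector replicates 1 to 3, or 0.316, 0.293 and 0.386 RPKM against 0.223, 0.109 and 0.171 RPKM. The FOSB groups did not overlap. Over the same genes its log2 fold change was 0.32 (SE 0.11, limma adjusted p = 0.061), which missed the threshold that 23.7% of these genes passed on the higher side. On this scale a pseudocount of 0.5 exceeds most of these values and shrinks the fold change. With limma's voom on reads recovered from RPKM, an alternative chosen after seeing the data, FOSB had a log2 fold change of 1.11 (limma adjusted p = 0.0094), where 26.8% of genes were called higher, and FOS 0.55 (limma adjusted p = 0.13).

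**Figure D1:**
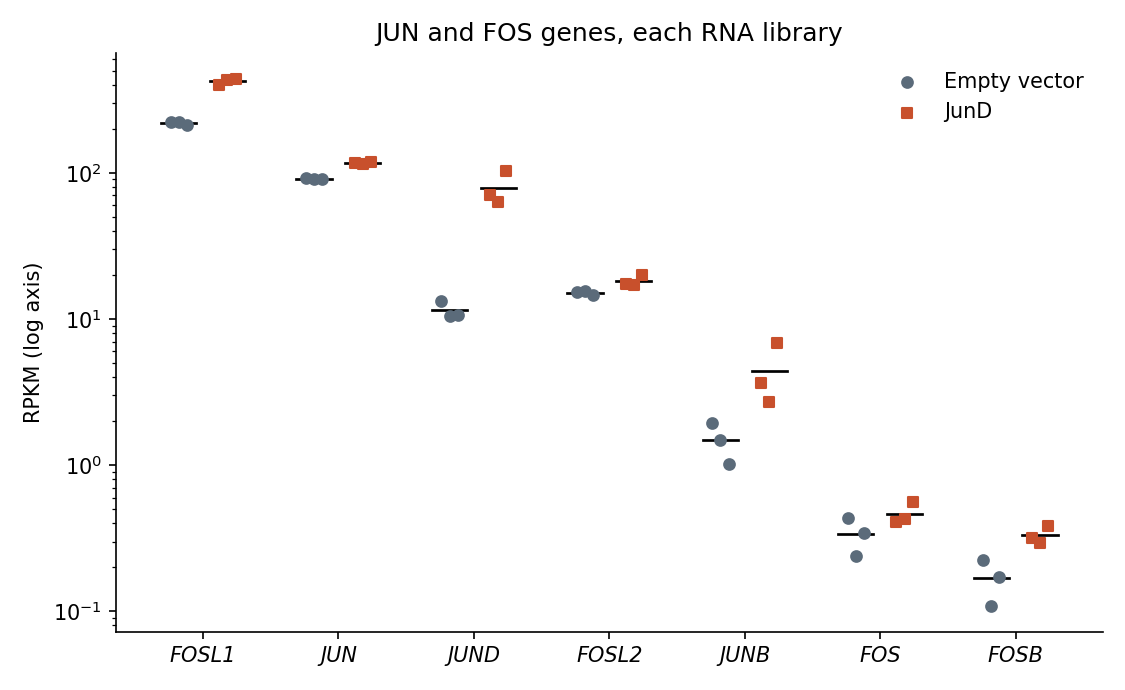
RPKM of the 7 genes in each RNA library on a log axis, with circles for empty-vector libraries, squares for JunD libraries, replicates 1 to 3 from left to right and black lines at the group means. FOSL1 lies highest in every library, and the groups are separate for every gene except FOS.

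Of the 5 members that passed the expression filter, 5 rose with JunD and 0 fell, where 31.5% of all 13379 tested genes were called higher and 14.7% lower. This count, and the later counts of members called or not overlapping, include JUND. JUND was transfected, so its rise was set by the design. The others called higher were JUN, JUNB, FOSL1 and FOSL2. RPKM leans toward higher values with JunD: the median log2 fold change over all tested genes was 0.10 in RPKM, 0.18 in TPM, -0.02 after median of ratios and -0.03 after quantile normalization. The share of all tested genes called higher and lower moved with it, to 37.8% and 11.3% in TPM. Median of ratios gave 21.5% and 23.5%, and quantile normalization 19.9% and 24.3%. JUND, JUN, JUNB and FOSL1 kept their calls under these 4 scalings and FOSL2 did not. The lowest JunD library lay above the highest empty-vector library for 6 of the 7 members, against 33.7% of genes with a mean of at least 0.1 RPKM. In 7 of 7 members the highest of the 6 libraries was JunD replicate 3, which was so for 34.4% of genes with a mean of at least 0.1 RPKM. That library also had the highest JUND level and stood apart in the whole table. Without it 5 members were still called higher, where 32.7% of all tested genes were called higher and 19.8% lower. Why it held the highest values was not tested.

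**Figure D2:**
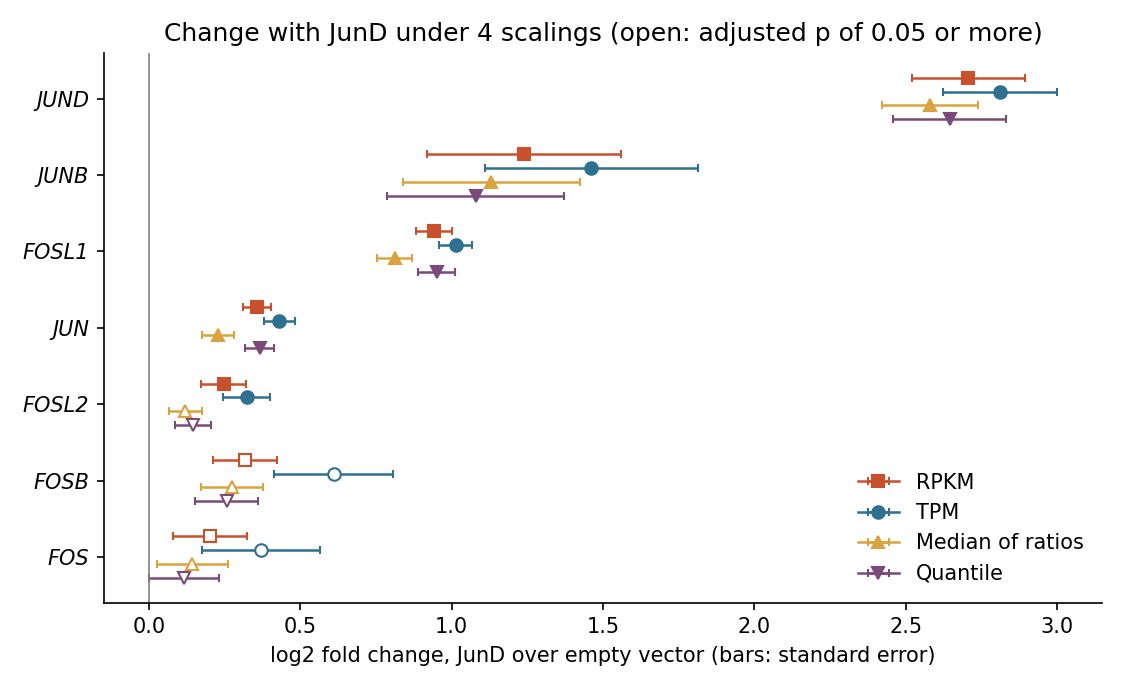
Log2 fold change of each gene, JunD over empty vector, under 4 scalings, with standard errors as bars and open symbols where the limma adjusted p was 0.05 or more. JUND, JUNB, FOSL1 and JUN stay filled throughout, FOSL2 turns open after median of ratios and quantile normalization, and FOSB and FOS, fitted over genes with a mean of at least 0.1 RPKM, are open.

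Because RPKM is per exon length, levels of the members can be set beside each other. For JUND in the JunD group this scaling is uncertain, since plasmid reads are divided by the 1863 bases of the gene model. The length of the plasmid insert is not given here, so the rank, shares and ratios of JUND carry this limit. With the empty vector the order of mean RPKM was FOSL1 (219 ± 5.57, SD, n = 3), JUN (91.2 ± 0.601), FOSL2 (15.1 ± 0.550), JUND (11.4 ± 1.55), JUNB (1.48 ± 0.469), FOS (0.340 ± 0.098) and FOSB (0.168 ± 0.057). With JunD it was FOSL1 (422 ± 20.6, SD, n = 3), JUN (117 ± 1.91), JUND (78.8 ± 20.9), FOSL2 (18.1 ± 1.54), JUNB (4.39 ± 2.16), FOS (0.465 ± 0.081) and FOSB (0.332 ± 0.048). JUND and FOSL2 thus changed places, and the libraries of neighbours in either order did not overlap. In RPKM, JUND stayed below JUN in each library even after transfection. The ratio of JUND to JUN was 0.606, 0.548 and 0.861 in JunD replicates 1 to 3 and 0.144, 0.116 and 0.117 in empty-vector replicates 1 to 3.

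As a share of the summed RPKM of the 7 genes, JUND went from 3.37% ± 0.39 (SD, n = 3) with the empty vector to 12.2% ± 2.52 with JunD. Its share was 11.6%, 10.0% and 14.98% in JunD replicates 1 to 3 and 3.82%, 3.09% and 3.20% in empty-vector replicates 1 to 3. The difference of the means was 8.84 percentage points, and 7.45 without JunD replicate 3. The share of JUN was lower with JunD although its level rose, at 18.3% ± 0.88 against 26.9% ± 0.49 (SD, n = 3 each), and the groups did not overlap. The share of FOSL2 was also lower, at 2.82% ± 0.10 against 4.46% ± 0.08 (SD, n = 3 each), again without overlap. FOSL1 held 65.9% ± 2.40 with JunD and 64.7% ± 0.33 with the empty vector (SD, n = 3 each), and its groups overlapped. Without JunD replicate 2 the difference was -0.047 percentage points, and without JunD replicate 3 it was 2.35. In shares of reads, not scaled to length, FOSL1 held 53.2% ± 1.92 against 47.5% ± 0.25 (SD, n = 3 each), and the groups did not overlap. JUNB reached at most 0.995% of the sum and FOS and FOSB less, and the groups overlapped for each of them. The shares have no test, since the members were chosen together.

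**Figure D3:**
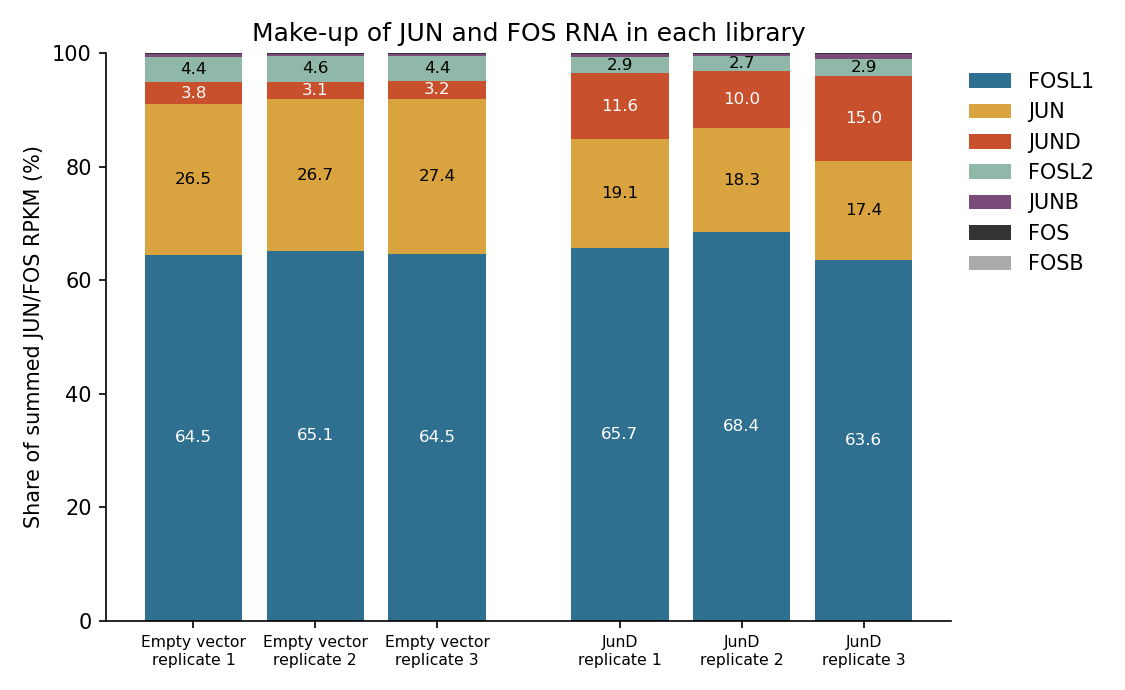
Stacked bars of each gene's share (%) of the summed JUN and FOS RPKM in the 6 RNA libraries. The JUND band widens from 3.09 to 3.82% with the empty vector to 10.0 to 14.98% with JunD, the JUN band narrows, and FOSL1 keeps between 63.6 and 68.4% of the sum.

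Leaving JUND out showed how the other 6 members shifted among themselves. FOSL1 then held 74.3%, 76.0% and 74.8% of the remaining RPKM in JunD replicates 1 to 3 and 67.0%, 67.1% and 66.6% in empty-vector replicates 1 to 3. JUN held 21.7%, 20.4% and 20.5% against 27.6%, 27.6% and 28.4% in the same order. The ratio of FOSL1 to JUN within a library, which a single factor per library cannot change, was 3.43, 3.73 and 3.66 in JunD replicates 1 to 3 and 2.43, 2.43 and 2.35 in empty-vector replicates 1 to 3. FOSL1 was thus raised more than JUN in each JunD library, and more than FOSL2, over which its ratio was 21.9 to 25.2 with JunD and 14.3 to 14.7 with the empty vector.

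The sum of all 7 members was 607, 632 and 685 RPKM in JunD replicates 1 to 3 and 347, 341 and 330 RPKM in empty-vector replicates 1 to 3. Without JUND it was still 536, 568 and 583 RPKM against 333, 330 and 320 RPKM, so the groups stood apart with or without the transfected gene. The JUN side summed to 200.2 ± 25.01 RPKM with JunD and 104 ± 2.55 RPKM with the empty vector, and the FOS side to 441 ± 21.5 and 235 ± 6.11 RPKM (SD, n = 3 each). The ratio of the FOS side to the JUN side was 2.19, 2.47 and 2.00 in JunD replicates 1 to 3 and 2.24, 2.30 and 2.23 in empty-vector replicates 1 to 3. These ratios overlapped between groups, with the lowest value in the library that had the most JUND. The difference of the means was -0.038, and 0.074 without JunD replicate 3. Counted in reads, without scaling to length, the ratio was 1.55 to 1.76 with JunD and 1.48 to 1.54 with the empty vector, and the groups did not overlap.

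Lists of genes that act with, on or through AP-1 were set beside the family, chosen with earlier results of these data known. Of 14 tested partners from other basic leucine zipper families, 11 rose (78.6%) and 0 fell, where 31.5% of all tested genes were called higher and 14.7% lower, and the median log2 fold change was 0.70 against 0.10. BATF2, with 0.203 RPKM with the empty vector and 3.95 RPKM with JunD, passed the expression filter only through the JunD group, and without it 10 of 13 rose, with a median of 0.62. DDIT3, which encodes the stress factor CHOP, had 12.8 ± 0.37 RPKM with the empty vector and 77.8 ± 5.46 RPKM with JunD (SD, n = 3 each), and its log2 fold change was 2.56 (limma adjusted p = 1.25e-06). MAFF, a small MAF protein, rose by 1.84 on the log2 scale, and ATF3, a stress-induced partner of JUN proteins, rose by 2.46, from 3.42 ± 0.43 to 21.0 ± 0.05 RPKM (SD, n = 3 each). Both ATF3 and MAFF differed between the JunD libraries by less than JUND did, and ATF2 had -0.0032 (limma adjusted p = 0.97).

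Of 29 tested regulators of JUN and FOS proteins, 8 rose and 3 fell, or 27.6% and 10.3%, beside 31.5% and 14.7% of all tested genes. The 3 with the smallest adjusted p among those that rose were phosphatases that switch off MAP kinases. DUSP6, at 0.485 RPKM with the empty vector and 1.75 RPKM with JunD, passed the expression filter only through the JunD group, and without it 7 of 28 rose. DUSP10 rose by 1.64 and DUSP1 by 1.42 on the log2 scale, and DUSP1 reached 10.7, 12.0 and 16.3 RPKM in JunD replicates 1 to 3 against 4.97, 4.63 and 3.91 RPKM in empty-vector replicates 1 to 3. GSK3B, a kinase that marks JUN for decay, had -0.30, MAPK3, which encodes the kinase ERK1, had -0.53, and RNF187, a ubiquitin ligase that acts with JUN, had -0.20, and these 3 were the members that fell (limma adjusted p = 0.0043, 0.0084 and 0.043). The lower count moved with that of all tested genes: 7 were lower after median of ratios or quantile normalization, where 23.5% and 24.3% of all tested genes were. Without JunD replicate 3 it was 8, where 32.7% of all tested genes were called higher and 19.8% lower.

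Of 11 tested factors that switch on JUN and FOS transcription, 7 rose (63.6%) and 1 fell (9.09%), beside 31.5% and 14.7% of all tested genes. SRF, the serum response factor of the FOS promoter, had a log2 fold change of 0.32, CREB1 0.31 and MEF2D, a factor at the JUN promoter, 0.42, while MKL2, a partner of SRF, fell by 0.29 on the log2 scale (limma adjusted p from 0.0044 to 0.019). These small changes depended on scaling, since only 2 were higher after quantile normalization, where 19.9% of all tested genes were. Leaving out empty-vector replicate 3 left 4, with 24.9% of all tested genes higher and 12.4% lower. The MKL2 call was lost in TPM, and without JunD replicate 2 or any 1 of the empty-vector libraries.

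Of 21 tested genes often used as AP-1 targets, 13 rose (61.9%) and 2 fell (9.52%), beside 31.5% and 14.7% of all tested genes, and the median log2 fold change was 0.78 against 0.10. IL6, at 0.758 RPKM with the empty vector and 12.6 RPKM with JunD, passed the expression filter only through the JunD group, and without it 12 of 20 rose, with a median of 0.76. ITGA2, an integrin chain, had 1.49 ± 0.04 RPKM with the empty vector and 11.7 ± 0.77 RPKM with JunD (SD, n = 3 each), and its log2 fold change was 2.61 (limma adjusted p = 1.25e-06). The plasminogen activator PLAU rose by 2.03 and the growth factor VEGFA by 1.87 on the log2 scale. NQO1, an antioxidant enzyme, had -0.50 and TFRC, the transferrin receptor, had -0.56, and these were the 2 that fell. The cyclin gene CCND1 had 0.04 (limma adjusted p = 0.79).

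Among 13379 tested genes, those whose profile over the 6 libraries lay nearest to a member's were found by root mean square distance of log2 values, each taken from the gene's empty-vector mean. HELZ2 lay nearest to JUND, at 0.09, followed by IGFBP6 at 0.15, LGALS9 at 0.18, PLSCR1 at 0.19 and ITGA2 at 0.19. With a pseudocount of 1 in place of 0.5, 3 of these 5 were again among the 5 nearest, and LGALS9 and ITGA2 were not. LGALS9 had 0.0033 RPKM with the empty vector and 2.39 RPKM with JunD, so it was compared only through the JunD group and its distance depends on the pseudocount. SDCBP and MTBP lay nearest to JUN at 0.02 each, DHRS7 and YARS nearest to FOSL1 at 0.03 each, CELF1 and SLAIN2 nearest to FOSL2 at 0.01 each, and IFITM2 and CEBPB nearest to JUNB at 0.17 and 0.18. With a pseudocount of 1, neither SDCBP nor MTBP was among the 2 nearest to JUN. YARS at FOSL1 and IFITM2 at JUNB were also replaced, while CELF1 and SLAIN2 stayed nearest to FOSL2. These distances describe 6 libraries in 2 groups, and any gene with a like difference between groups lies close.

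The ChIP list gave the places where the authors called JunD peaks in smoke-exposed cells. It held 61360 peaks with a median fold enrichment of 3.12 over background and a median pileup of 5, and 2.60% of them had q below 0.05. Within 50 kb of the 7 genes lay 26 peaks, and 7 of 7 genes had at least 1, as did 93.6% of the 29417 genes at a single place. Counts per gene ran from 2 at FOSB to 6 at FOSL2, with a median of 3 and quartiles of 2 and 5 over those 29417 genes. Fold enrichment, p, q and pileup are the authors' values for each peak, and neither ChIP library has a replicate.

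FOS carried the peaks of highest fold enrichment near the family. One of 424 bp lay wholly in annotated exons of FOS (chromosome 14, 75280023 to 75280446), 1.25 kb downstream of the start, with a fold enrichment of 5.08, a q-value of 0.0027 and a pileup of 11. It ranked 221 of 61360 peaks by fold enrichment. A peak 43.8 kb upstream (chromosome 14, 75234399 to 75234957) had a fold enrichment of 5.05 and a q-value of 0.012, and FOS was the nearest start to it. No other peak within 50 kb of any member had q below 0.05. A further peak 6.06 kb upstream of FOS had a fold enrichment of 4.12 and a q-value of 0.072. A peak with q below 0.05 lay within 50 kb of 10.4% of genes and within 2.82% of genes themselves, shares not matched for gene length. FOS RNA, at 0.340 RPKM with the empty vector and 0.465 RPKM with JunD, was among the least abundant of the family.

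At JUN a peak (chromosome 1, 58784848 to 58785249) lay 521 bp upstream of the start and covered the start of LINC01135, with a fold enrichment of 2.90, a q-value of 0.18 and a pileup of 11. At FOSL2 a peak (chromosome 2, 28391615 to 28392051) lay 397 bp upstream of the start, inside FLJ31356 on the opposite strand, with a fold enrichment of 2.60 and a q-value of 0.41. Both starts are those of the deposited gene models. From the 250 bases before the RefSeq start, the nearest peak lay 551 bp away at JUN and 557 bp away at FOSL2. JUN and FOSL2 were thus 2 of 7 members whose start had a peak at 1 kb or less, where 7.23% of all genes had one. Within 5 kb of the start, 3 of 7 members including FOS carried a peak, against 22.2% of genes, and 1 of 7 had a peak inside the gene, against 39.1%. The last share was not matched for gene length, and a longer gene has more room for a peak. The strongest peak near JUN lay 17.6 kb beyond its end, with a fold enrichment of 4.002 and a q-value of 0.072.

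The other members had peaks only at a distance. At JUND the nearest peak lay 4.30 kb beyond the gene's end, with a fold enrichment of 3.90 and a q-value of 0.072, and was 0.543 kb from the start of KIAA1683. At JUNB the strongest of 4 peaks lay 11.5 kb beyond the end, with a fold enrichment of 4.05 and a q-value of 0.072, and was 1.47 kb from the start of RNASEH2A. FOSL1, the most abundant member, had no peak closer than 29.1 kb to the gene, and its 4 peaks, 29.1 to 42.3 kb upstream, had fold enrichments of 2.67 to 3.52 and q-values of 0.18 to 0.41. FOSB had 2 peaks, both about 44 kb upstream and inside ERCC1, with fold enrichments of 2.43 and 2.86 and q-values of 0.35 and 0.28.

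**Figure D4:**
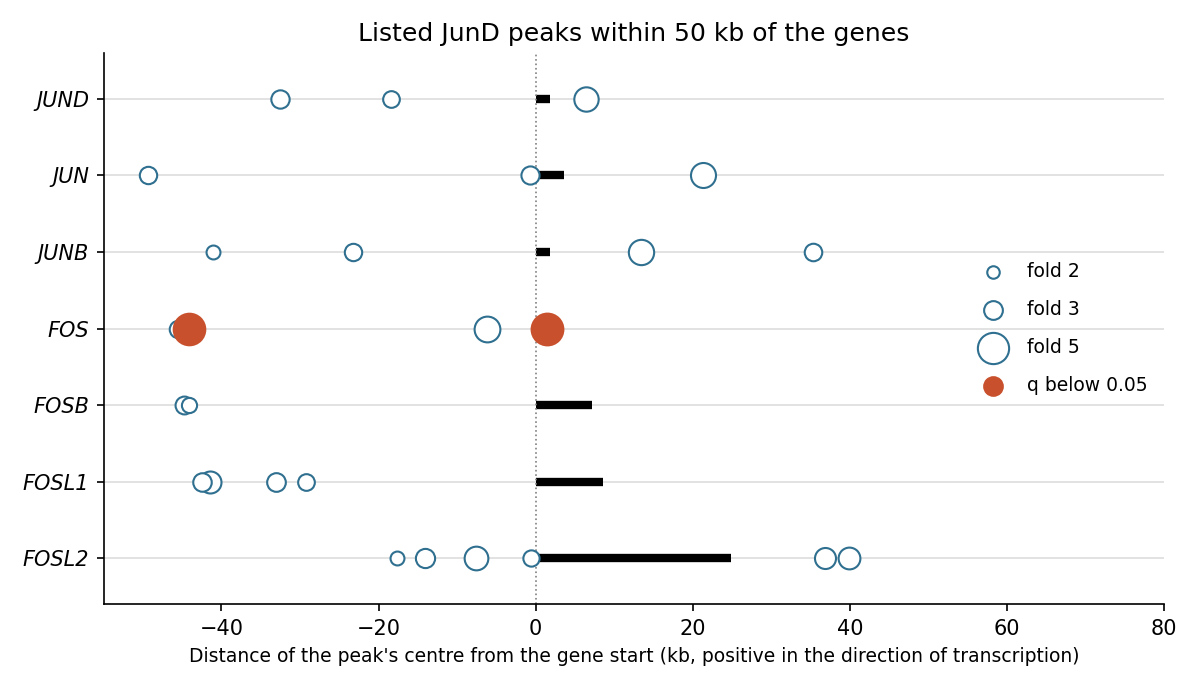
Listed JunD peaks within 50 kb of each gene, by distance (kb) of the peak's centre from the gene start, positive along transcription, with circle area proportional to the square of fold enrichment, filled circles for q below 0.05 and black bars for the gene. The 2 filled circles are both at FOS, 1 within the gene and 1 at 43.8 kb upstream, and FOSL1 and FOSB have no peak within 29.1 kb of the gene.

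The RNA and the peaks are set side by side here, and whether they are related was not tested. FOSL1, with the largest rise in RPKM, had no peak within 29.1 kb. By log2 fold change, JUND (2.71) and JUNB (1.24) rose more than FOSL1 (0.94). FOS, with the strongest peaks, had groups that overlapped in RNA, but from only 20 to 32 reads per library. The ChIP cells carry no stated transfection and the RNA cells no stated CSE dose, so JunD level and smoke dose may differ between both kinds of data.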

How the data were processed

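RNA was measured in 3 JunD and 3 empty-vector libraries and JunD binding in 1 ChIP library against 1 input library. The authors deposited RPKM, which divides a gene's reads by its exon length and by the library's assigned reads, with exon coordinates per gene name. Their deposited peak list gives, for each peak, a ratio (fold enrichment), a pileup signal, and a p-value and q-value on a linear scale. The submitters' processing notes name STAR 2.5.3a, Trimmomatic 0.36, MACS2 2.1.1, featureCounts, bedtools 2.25.0 and Subread 1.5.1, without roles, and build GRCh38. Not given in the sources used here are the annotation release, the strand setting and the ChIP aligner.

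RPKM times exon length gave whole reads for 100% of values within 0.01 read. Genes with a mean of at least 1 RPKM entered a limma fit (version 3.58.1, R 4.3.3) with a trend in the variance, on log2(RPKM + 0.5), a scale whose pseudocount understates the change of low genes, and were called at a two-sided Benjamini-Hochberg adjusted p below 0.05 over all genes tested. Peaks were assigned by the distance between the nearest bases, with 1-based positions. Named genes were the 7 members, the 3 called members of each list with the smallest adjusted p in each direction, the 5 genes nearest to JUND and the 2 nearest to each other tested member by profile, and genes at a named peak. ATF2, BATF2, IL6 and CCND1 were named after their values were seen. The members, lists and motifs were chosen with earlier results of these data known. Same-numbered libraries of the groups did not deviate together, with correlations of -0.17, -0.08 and -0.38. Deviations from the mean of 3 libraries cancel within a group, so these values cannot decide whether same-numbered libraries were paired.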

Additional observations from a re-analysis of the deposited data

How the results depend on the processing

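JUND, JUN and FOSL1 kept their direction and call under every alternative run, and no log2 fold change of a member changed sign. Differences in shares and ratios that were smaller than the spread between libraries did change sign: FOS over JUN members was -0.038, but 0.126 in reads and 0.074 without JunD replicate 3, the difference in FOSL1 share was -0.047 points without JunD replicate 2, and the FOSB share went from 0.0021 to -0.0065 points without empty-vector replicate 2 and to -0.00023 without JunD replicate 3. Without JUND, the FOSB share went from 0.0077 to -0.0014 points without empty-vector replicate 2. Whether same-numbered libraries were paired is not stated. With the replicate number as a block, JUNB stood at 1.24 (limma adjusted p = 0.056) and FOSL2 at 0.25 (limma adjusted p = 0.11), 3 members and 4 inducers were called higher, 0 inducers lower, and 1188 genes lower. No library correlated best with its own number. Without the filter JUNB (1.24) and FOSL2 (0.25) lost their calls, leaving 3. FOSL2 was at 0.12 after median of ratios and 0.15 after quantile normalization. With a library left out, JUNB ranged from 0.90 to 1.503, FOSL2 from 0.18 to 0.28, members called higher from 3 to 5, regulators lower from 2 to 8, inducers higher from 4 to 7 and inducers lower from 0 to 1. Regulators lower numbered 7 after median of ratios or quantile normalization, inducers higher 2 after the latter and inducers lower 0 in TPM. Genes called higher were 2663 after quantile normalization, and genes called lower 3143 after median of ratios and 3253 after quantile normalization. FOSB was called at 1.11 with voom. In shares of reads, not scaled to length, the JunD minus empty-vector difference was 5.67 points for FOSL1 and -3.80 for FOSL2, and without JUND 10.2, -3.17 and 0.026 for FOSL1, FOSL2 and FOSB. Peaks near the members numbered 6 within 10 kb (4 members), 50 within 100 kb, 2 with q below 0.05 (1 member) and 5 with a fold of at least 4 (3 members). Of the 5 genes nearest to JUND, 3 stayed with a pseudocount of 1. The 2 count-model alternatives planned were not run, since the deposited unit is RPKM. FOS and FOSB, with 17 to 38 reads per library, are limited by depth.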
